A study of Mus musculus with 22 samples.

Results

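The genes described here are 10 genes of MHC class I antigen presentation, taken from a fixed list of symbols and measured in sorted lung monocytes and alveolar macrophages of SP-CI73T mice. They are the light chain B2m, the heavy chains H2-K1, H2-D1 and H2-T23, the peptide transporter subunits Tap1 and Tap2, the loading chaperone Tapbp, the immunoproteasome subunits Psmb8 and Psmb9, and the transactivator Nlrc5. All 10 were found among the 31116 genes counted in both cell types, and all 10 had enough counts to be tested in every comparison. The rule that chose them used no measured value.

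Every nucleated cell displays peptides from its own proteins on MHC class I molecules, each made of a heavy chain and B2m. The proteasome cuts the peptides, the TAP transporter carries them into the endoplasmic reticulum, and Tapbp (tapasin) holds the empty heavy chain next to the transporter. Interferons raise the whole set, in part through Irf1, swap constitutive proteasome subunits for inducible ones, and act with Nlrc5, a nuclear NLR protein that drives class I promoters together with RFX, CREB family and NF-Y factors bound at conserved boxes.

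The mice are homozygous adult C57BL/6 carriers of an inducible mutant allele of surfactant protein C (SP-CI73T), a protein made by alveolar type 2 epithelial cells, in which a single oral tamoxifen dose activates a Flp-O recombinase (expressed from Rosa26) that removes a neomycin cassette and raises the mutant protein. The control mice also carry SP-CI73T and are labelled untreated. The study describes the controls of the sequenced monocytes as oil treated, and elsewhere also lists tamoxifen-treated mice lacking Flp-O as controls. The mutation is thus shared by all 6 groups and recombination is not. Where controls had no tamoxifen, the drug and recombination cannot be told apart. Ly6Chi monocytes (CD11b+) were collected as 4 control samples, 4 taken 3 d after tamoxifen and 4 taken after 14 d, and SigF+CD11b- alveolar macrophages as 4 control, 3 early (3 d) and 3 late (14 d) samples. Nothing states whether samples with the same number came from 1 mouse, nor that each sample is 1 mouse, and p-values measure the spread between these samples. Because RNA was measured in bulk, fewer cells of a type and less RNA per cell cannot be told apart.

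Each monocyte sample held between 15451460 and 28789639 counts and each macrophage sample between 4610720 and 17074863, the 14 d macrophages having the fewest. The monocyte marker Ly6c2 ranged from 1314 to 3459 depth-scaled counts (CPM) in the monocyte samples but from 1.18 to 6.19 CPM in the macrophage samples. In monocytes it was at 2570 to 3281 CPM in the controls, 2668 to 3459 at 3 d and 1314 to 1790 at 14 d. Control and 14 d monocytes thus did not overlap in Ly6c2. The macrophage marker Siglecf ranged from 0.80 to 29.2 CPM in the monocyte samples and from 90.1 to 348 CPM in the macrophage samples. The 14 d samples of both cell types carried 433 to 3033 counts of 4 Y-linked genes (Ddx3y, Uty, Eif2s3y and Kdm5d) and 1 to 32 of Xist, against 0 to 3 and 552 to 4444 in the other samples, so sex and time cannot be told apart at 14 d. The cell types were counted in separate tables. Genes of antisense biotype took 0.139% to 0.384% of the counts in monocytes and 1.21% to 1.39% in macrophages, and cell type and counting cannot be told apart. Exons of Tap1 and Psmb9 share 212 bases on opposite strands, and Tapbp shares 149 with Zbtb22 on its own strand. Wider overlaps lie with genes on the other strand. Tapbp shares 904 bases (24.9% of its exons) with Gm19412, Psmb8 498 (14.7%) with Gm20496, and Tap2 533 (14.1%) with Gm15821. Gm20496, which also overlaps Tap2, had 0 counts in every monocyte sample and up to 1682 in macrophages. In the same order, Gm19412 had up to 33 and 1330 counts and Gm15821 up to 9 and 951. Reads of class I heavy chains can also be shared among near-identical copies, so their values carry that uncertainty.

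Most of these genes lie close together. On GRCm38, 8 of the 10 are in the MHC on chromosome 17, B2m is at chr2:122147686-122153083 and Nlrc5 at chr8:94434356-94527272. Tap1 (chr17:34187553-34197225) and Psmb9 (chr17:34181987-34187764) are read in opposite directions from a shared start region, Psmb8 follows Tap1 at chr17:34197721-34201454, and Tap2 follows at chr17:34203527-34216321. H2-K1 (chr17:33996017-34000347) and Tapbp (chr17:33915899-33929292) lie to one side of this block, and H2-D1 (chr17:35262730-35267499) and H2-T23 (chr17:36029773-36032855) to the other.

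The promoters of the members are shown because class I promoters have known boxes. RefSeq windows on GRCm38.p6, from 250 bases before to 50 after the start, were matched for 8 of the 10 members, and Tap2 and Nlrc5 had none. Of 3 motifs searched on both strands, CCAAT (the NF-Y box) was in the windows of 7 of the 8 matched members and in 37.4% of all 32851 windows. TGACG (the core of a CREB site) was in 5 of 8 and in 20.8% of all windows, and GAANNGAAA (an interferon response repeat) in 2 of 8 and 7.52%. The motifs do not overlap one another in the stretches printed here. Below are the 250 bases before the start of B2m (chr2:122147437-122147686, + strand), H2-K1 (chr17:34000334-34000583, - strand), H2-D1 (chr17:35262844-35263093, + strand), H2-T23 (chr17:36032702-36032951, - strand) and Tap1 (chr17:34187306-34187555, + strand), 5′ to 3′, with the motif letters in capitals on whichever strand they lie.
B2m: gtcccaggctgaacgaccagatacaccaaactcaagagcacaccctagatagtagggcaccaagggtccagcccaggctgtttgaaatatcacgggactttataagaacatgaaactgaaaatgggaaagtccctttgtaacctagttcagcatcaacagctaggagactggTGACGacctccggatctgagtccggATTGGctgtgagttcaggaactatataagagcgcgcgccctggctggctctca
H2-K1: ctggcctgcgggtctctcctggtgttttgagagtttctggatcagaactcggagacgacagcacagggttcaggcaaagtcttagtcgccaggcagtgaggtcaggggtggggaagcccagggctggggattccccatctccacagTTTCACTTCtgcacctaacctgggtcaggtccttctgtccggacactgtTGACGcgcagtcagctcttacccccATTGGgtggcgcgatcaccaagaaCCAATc
H2-D1: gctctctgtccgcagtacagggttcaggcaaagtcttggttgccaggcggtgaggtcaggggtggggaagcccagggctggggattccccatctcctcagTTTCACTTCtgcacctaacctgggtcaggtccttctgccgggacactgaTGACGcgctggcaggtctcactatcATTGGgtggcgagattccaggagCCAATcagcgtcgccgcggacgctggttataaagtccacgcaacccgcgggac
H2-T23: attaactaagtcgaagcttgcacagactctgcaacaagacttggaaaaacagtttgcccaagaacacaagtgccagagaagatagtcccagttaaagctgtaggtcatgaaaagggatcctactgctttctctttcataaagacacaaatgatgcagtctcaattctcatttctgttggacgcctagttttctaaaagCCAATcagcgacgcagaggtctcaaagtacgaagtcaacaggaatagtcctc
Tap1: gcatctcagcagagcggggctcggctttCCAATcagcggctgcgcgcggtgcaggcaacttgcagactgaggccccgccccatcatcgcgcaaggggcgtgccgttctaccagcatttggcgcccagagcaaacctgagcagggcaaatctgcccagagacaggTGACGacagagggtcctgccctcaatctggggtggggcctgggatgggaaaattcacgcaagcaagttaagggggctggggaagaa

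H2-K1 and H2-D1 carried the same order of letters: the interferon response repeat, read as TTTCACTTC on the printed strand, then TGACG, then CCAAT on the opposite strand and again on the printed strand. B2m had TGACG followed by CCAAT on the opposite strand, and H2-T23 had 1 CCAAT box and no match to the other motifs as searched. The B2m stretch also holds gaaactgaaa and that of H2-T23 tttctctttc, which are spaced wider than GAANNGAAA and were not counted. Neither gene is thus shown to lack an interferon response repeat. The Tap1 window shares 275 bases with that of Psmb9, so 1 stretch of letters serves both genes. Their CCAAT and TGACG matches are the same sites and entered the counts above once for each gene. Windows of Tapbp and Psmb8 held 2 CCAAT boxes and none of the 3 motifs, respectively. These are matches of letters and not shown to be bound sites.

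Levels were compared between members per kilobase of exon, as TMM-scaled CPM per kb within a cell type. The length was that of all annotated exons of a gene merged, not of the transcripts present, and the order depends on it. By CPM alone, H2-D1 (mean 8452) stood above B2m (5953) in control monocytes. B2m was highest, H2-D1 next and H2-K1 after it in all 6 groups, and Nlrc5 was last in all 6. In control monocytes B2m stood at 6922 ± 1434 CPM per kb (SD, n = 4), H2-D1 at 3277 ± 433 and H2-K1 at 1061 ± 82.3. In the middle of the order Tapbp (266 ± 56.1) and Psmb8 (258 ± 15.8) followed H2-T23 (305 ± 22.8), and Psmb9 (61.1 ± 9.43), Tap1 (58.3 ± 11.6) and Tap2 (55.7 ± 13.3) came next. Within each of these sets of 3, neighbours differed by less than 1 SD of Tapbp or Tap2. Nlrc5 stood at 6.58 ± 0.677. In control macrophages B2m was at 1848 ± 240 and Nlrc5 at 1.19 ± 0.487 CPM per kb (SD, n = 4).

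Macrophages held less of every member than monocytes in the control groups. In a fit of the 22 samples together (edgeR quasi-likelihood test, Benjamini-Hochberg adjusted, called at an adjusted p under 0.05 and a fold change above 1.5), 10 of 10 members were lower in control macrophages than in control monocytes, where 19.7% of the genes tested, and 33% of those with an average log2 CPM above 3, were called lower. Differences on the log2 scale ran from -1.23 ± 0.16 (SE) for Tap2 (adjusted p = 3.45e-07, edgeR) to -2.94 ± 0.15 for Psmb8 (adjusted p = 1.6e-14, edgeR), with a median of -2.24 against 0.05 for all genes. The immunoproteasome subunit Psmb8, which overlaps Gm20496, was 7.66-fold lower, Nlrc5 7.15-fold lower and B2m 4.84-fold lower. The part of that overlap in the Psmb8 difference was not tested. The count of members called lower was 10 in every alternative processing and with each sample left out. At 3 d and at 14 d 10 of 10 members were again lower in macrophages, where 42.7% and 23.3% of genes, and 24.6% and 55% of those above that level, were. The first count was 8 (H2-K1 and Tap2 lost) without 3 d macrophage sample 3 or without 14 d monocyte sample 4, and also 8 with no filter on low counts. The second was 8 under library size scaling and high-gene TMM (factors from strongly expressed genes alone) and 9 under a stricter filter, Tap2 and Nlrc5 being the genes lost at 14 d. Over the 6 groups, on the scale shared by both tables, control monocytes were highest and 14 d macrophages lowest for all 10 members. Between these, neighbours often overlapped: 3 d and control macrophages lay next to each other for all 10 members and their samples overlapped for 8.

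**Figure D1:**
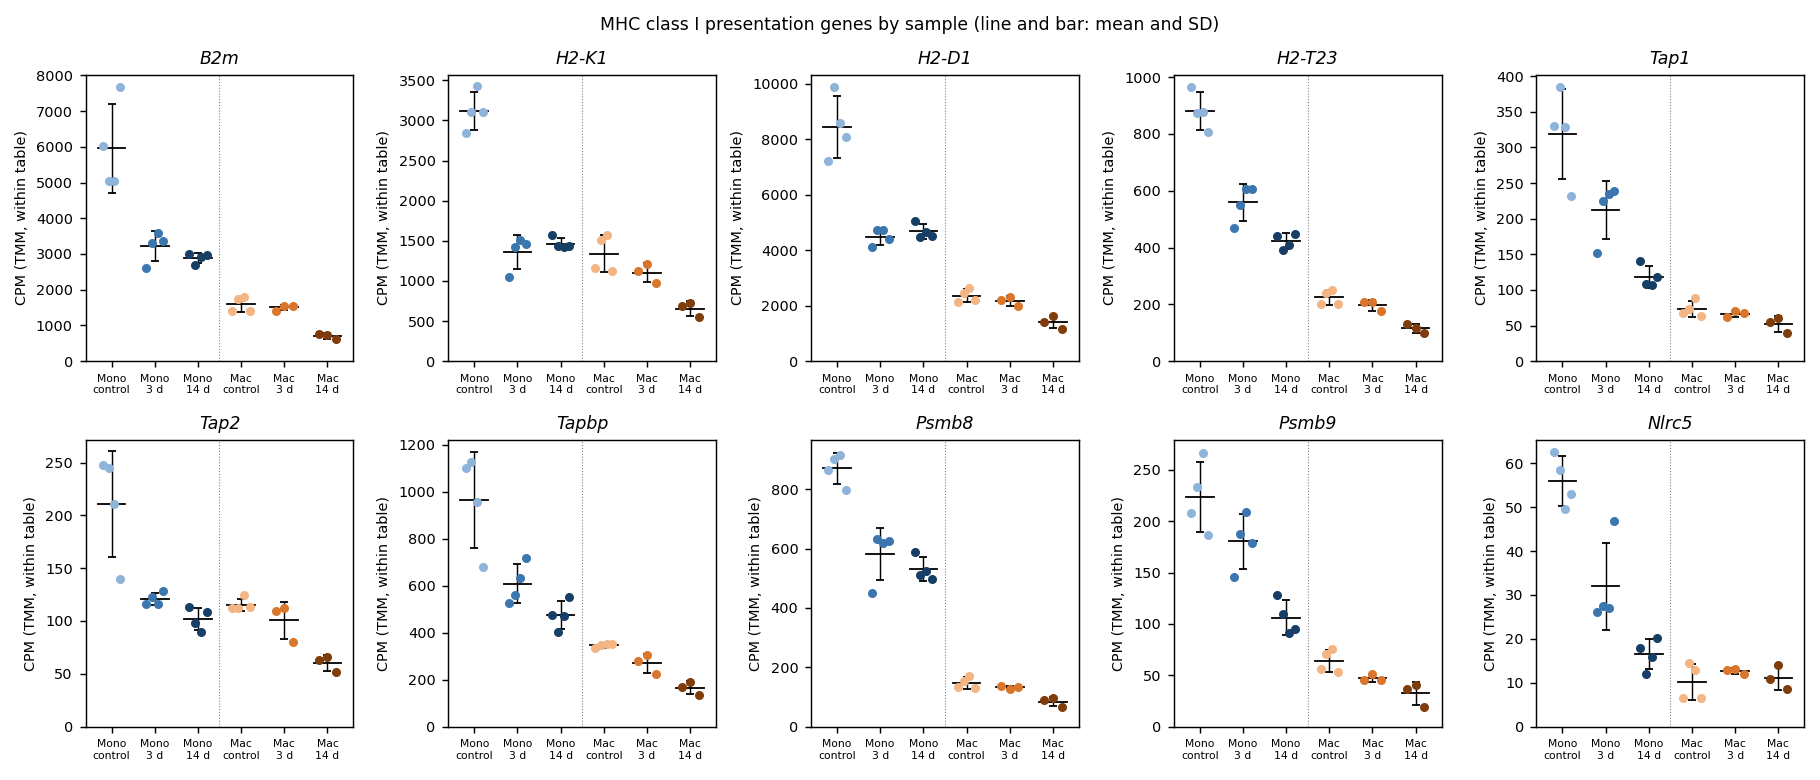
CPM by sample (y axis, TMM scaled within each cell type, from 0) for the 10 genes in the 6 groups (x axis, Mono for monocytes and Mac for macrophages); points are samples, lines the mean and bars the SD. At 14 d every monocyte sample lies below every control sample for all 10 genes, and in macrophages the 3 groups of Nlrc5 overlap.

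The first comparison asked how class I genes differ in monocytes 3 d after induction. Here 7 of 10 members were called lower and none higher, where 14.4% of all tested genes, and 33.3% of those with an average log2 CPM above 3, were called lower. All 4 chain genes fell. B2m was at 6035, 5054, 5056 and 7668 CPM in the control samples and at 2611, 3311, 3588 and 3352 CPM at 3 d. Every 3 d sample lay below every control sample, as for 7 of the members and 14.5% of tested genes, and the change was -0.89 ± 0.15 (log2, SE, adjusted p = 0.000732, edgeR). H2-K1, a classical heavy chain, went from 2838, 3099, 3428 and 3099 CPM to 1053, 1425, 1504 and 1456 CPM, again without overlap. This was the greatest fall of the 10, at -1.20 ± 0.13 on the log2 scale (adjusted p = 0.000138, edgeR). H2-D1, the other classical heavy chain, fell by 0.91 and H2-T23 (Qa-1, a ligand of NK cell receptors) by 0.66 on the log2 scale.

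Among the other 6 members at 3 d, Tap2 (-0.80 ± 0.17), Nlrc5 (-0.81 ± 0.21) and Tapbp (-0.67 ± 0.17) were called lower, all in log2 units with SE. Tap1 (-0.58 ± 0.18) and Psmb8 (-0.58 ± 0.13) had adjusted p-values of 0.0143 and 0.00276 (edgeR) but fold changes just under the threshold of 1.5. Psmb9 was at 208, 233, 267 and 186 CPM in the controls and 145, 188, 209 and 179 CPM at 3 d. Its groups overlapped, and its change of -0.31 ± 0.16 did not pass the test (adjusted p = 0.111, edgeR).

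The size of the 3 d change depended on the scaling. Genes with an average log2 CPM above 3 had a median change of -0.47 under TMM, against -0.73 for the 10 members, and the median over all tested genes was 0.22. When TMM factors were estimated on strongly expressed genes alone (mean log2 CPM over 5, here high-gene TMM), these medians were 0.05, -0.20 and 0.74, and 1 of 10 members was called lower, which was H2-K1 (-0.67). The count was also 1 under library size or upper quartile scaling, and the share of calls that were lower went from 28.2% to between 4.24% and 6.84%. H2-K1, H2-D1 and B2m stayed at or below -0.36 on the log2 scale in every alternative, and Psmb9 changed sign. Without 3 d monocyte sample 1 the count was 5, H2-T23 and Tapbp being lost. Between 40119 and 41134 genes were detected in 3 d monocyte samples and 24775 to 30865 in the controls, and mitochondrial genes took 2.10% to 3.62% of counts against 0.969% to 1.41%; their part in the shift was not tested.

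**Figure D2:**
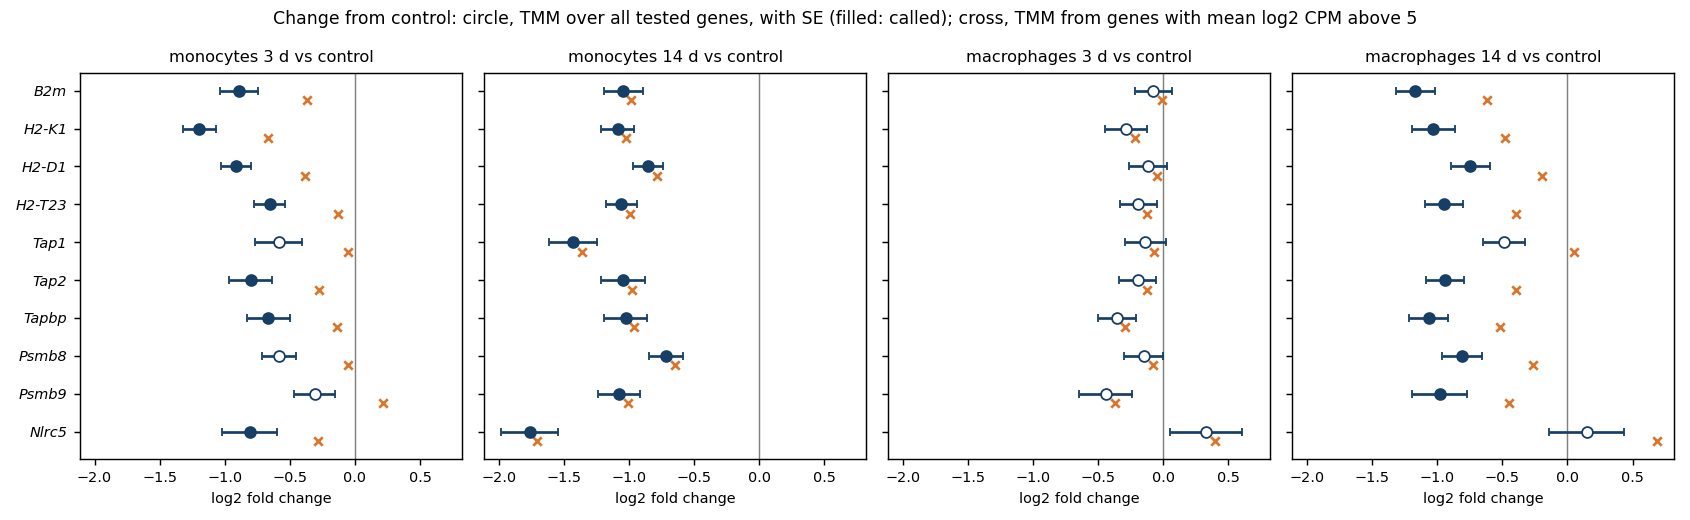
Log2 fold change against control (x axis) for the 10 genes in monocytes and macrophages at 3 d and 14 d; circles with SE bars use TMM over all tested genes (filled where called) and crosses the high-gene TMM factors. The 2 scalings nearly coincide for monocytes at 14 d, with all 10 genes lower, and part by about 0.5 for monocytes at 3 d and macrophages at 14 d.

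At 14 d all 10 members were lower in monocytes. Here 10 of 10 were called, where 5.34% of all tested genes and 9.68% of those with an average log2 CPM above 3 were called lower. The median change was -1.05, against 0.09 for all tested genes. No control sample overlapped a 14 d sample for any of the 10, a pattern that 7.97% of tested genes showed in this direction. Each of the 10 was called in 11 of 11 alternatives, and the count was 10 with each sample left out.

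Nlrc5 fell the most in 14 d monocytes. It was at 62.5, 58.6, 49.6 and 53.0 CPM in the controls and at 17.9, 12.1, 15.8 and 20.2 CPM at 14 d. The highest 14 d sample was below the lowest control, and the change was -1.76 ± 0.22 (log2, SE, adjusted p = 0.000148, edgeR), a 3.39-fold fall. Tap1 went from 330, 385, 329 and 232 CPM to 140, 109, 106 and 119 CPM, a change of -1.43 ± 0.18 (adjusted p = 0.000208, edgeR). Its partner Tap2 changed by -1.04 ± 0.17 and Tapbp by -1.03 ± 0.17. The chain genes fell by similar amounts: H2-K1 was at 1574, 1430, 1422 and 1438 CPM and changed by -1.09 ± 0.13, H2-T23 by -1.06 ± 0.12, B2m by -1.04 ± 0.15 and H2-D1 by -0.85 ± 0.11. Psmb9 changed by -1.08 ± 0.16 and Psmb8, the smallest of the 10, by -0.72 ± 0.13.

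Between 3 d and 14 d the pathway did not move as 1 block. Tap1 (-0.84 ± 0.18, adjusted p = 0.00313), Psmb9 (-0.77 ± 0.16, adjusted p = 0.00284) and Nlrc5 (-0.95 ± 0.21, adjusted p = 0.00381, all edgeR) fell further, and were called in all 10 alternatives. This was 3 of 10 members where 34.5% of tested genes were called lower, and 3.17% of those with an average log2 CPM above 3. H2-K1 (0.11 ± 0.12), H2-D1 (0.06 ± 0.11) and B2m (-0.15 ± 0.15) stayed within 0.2 log2 of their 3 d level under TMM. Under the other scalings 6 to 8 members were called lower.

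Other genes of the pathway are given by list. Beside their 14 d monocyte counts stand the 5.34% of tested genes, and 9.68% of those with an average log2 CPM above 3, called lower. Of 14 other class I heavy chains and class I-like genes, 7 were called lower in 14 d monocytes and none higher. The non-classical heavy chains H2-Q6 (-2.99 ± 0.35) and H2-Q7 (-2.55 ± 0.31) fell most, with H2-T24 (-2.29 ± 0.24) and H2-T10 (-1.21 ± 0.25) after them. H2-Q7, a Qa-2 antigen, went from a mean of 177 ± 48.0 to 30.3 ± 3.36 CPM (SD, n = 4 each). Of 5 loading partners and trimming enzymes, only the tapasin-related Tapbpl was called (-1.20 ± 0.19). Of 19 regulators, 7 were lower and none higher, among them the interferon regulatory factors Irf1 (-1.80 ± 0.20) and Irf8 (-1.07 ± 0.18) and the interferon signal transducer Stat2 (-1.47 ± 0.23). Irf1 fell from 342 ± 85.6 to 98.4 ± 12.9 CPM. At 3 d, under TMM, 9 of the 14 class I genes were lower and 3 higher, all 5 loading partners and 14 of the 19 regulators were lower, and Irf8 (-1.31 ± 0.19) was the regulator with the largest fall. These 3 d counts stand beside the 33.3% of genes with an average log2 CPM above 3 that were called lower under TMM, and the share of lower calls fell under the other scalings, as given above.

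The proteasome split by subunit type at 14 d. None of the 3 constitutive catalytic subunits and none of the 11 structural subunits of the 20S core was called in monocytes. Psmb6 stood at 0.48 ± 0.15, Psmb7 at 0.28 ± 0.12 and Psmb5 at 0.19 ± 0.13 log2 from control, and the structural subunits between -0.07 and 0.35. Of the 3 other inducible genes, the activator subunits Psme1 (-0.68 ± 0.12) and Psme2 (-0.59 ± 0.12) were called lower and Psmb10 (-0.37 ± 0.15) was not. At 3 d none of these 17 genes was called.

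Marker lists of other cells also differed between the monocyte groups. All 4 patrolling monocyte markers (Treml4, Ace, Nr4a1 and Spn) were called lower at both times, and their summed level lay between 2011 and 2433 CPM in the controls, 366 and 623 after 3 d and 296 and 571 after 14 d. The T and NK cell list (3 of 6 lower at 14 d) summed to between 162 and 694 CPM in the controls, 6.70 and 118 after 3 d and 11.7 and 17.9 after 14 d. Within it Nkg7 was highest in control samples 3 and 4, at 461 and 370 CPM against 93.9 and 147 in samples 1 and 2. With control samples 1 and 2 alone as controls, chosen after seeing these values, 10 members were called lower at 14 d and 9 at 3 d. Alveolar macrophage markers summed to between 543 and 1360 CPM in control monocytes, 183 and 379 after 3 d and 390 and 729 after 14 d. The B cell list was lower at both times (3 of 3), lying between 24.1 and 53.6 CPM in the controls, 14.9 and 18.7 after 3 d and 5.06 and 16.9 after 14 d. The neutrophil list went the other way, with a median sum of 9.52 CPM in the controls, 28.1 after 3 d and 70.4 after 14 d, and 1 of its 4 markers was called higher at 3 d and none at 14 d. The 5 dendritic cell markers summed to 233 to 375 CPM in the controls. Their sums were lower in every sample at 3 d (23.9 to 184 CPM) and at 14 d (115 to 191 CPM). By calls, 2 of these 5 were lower at 3 d and 1 higher at 14 d. Epithelial markers (2 of 4 lower at each time) had median sums of 177 CPM in the controls, 55.8 after 3 d and 52.7 after 14 d. Of the 5 markers of classical monocytes, the sorted type, 2 were called lower and 0 higher at each time. The part of these marker differences in the class I result was not tested.

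In macrophages at 3 d no member was called (0 of 10, where 1.27% of genes were called in either direction), and none was in any alternative. At an unadjusted p under 0.05 edgeR gave 2 of 10, Tapbp and Psmb9, where 2944 of 20944 tested genes passed. DESeq2 called 0 at the adjusted threshold. B2m was at 1419, 1742, 1793 and 1404 CPM in the controls and 1418, 1552 and 1555 CPM at 3 d, fully within the control range. Changes ran from -0.44 ± 0.20 for Psmb9 to 0.33 ± 0.28 for Nlrc5, with a median of -0.17 against -0.01 for all tested genes. None of the genes of the other class I, loading, proteasome and regulator lists was called at 3 d either. Some marker sums differed from control. Epithelial markers summed to 446 to 724 CPM at 3 d and 129 to 204 in the controls, with 1 of 4 called lower and 0 higher. B cell markers summed to 121 to 374 against 36.6 to 98.3 CPM, with 0 of 3 called. The part of these differences was not tested.

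Macrophages at 14 d had lower levels of most members. B2m was at 771, 736 and 613 CPM, H2-K1 at 693, 721 and 554 CPM and Tapbp at 169, 189 and 136 CPM, each below every control sample. Under TMM 8 of 10 members were called lower, where 22.9% of all tested genes, and 42.3% of those with an average log2 CPM above 3, were. B2m changed by -1.17 ± 0.15 (adjusted p = 1.4e-05), Tapbp by -1.07 ± 0.15 (adjusted p = 3.08e-05) and H2-K1 by -1.03 ± 0.17 (adjusted p = 9.22e-05, all edgeR). Psmb9 (-0.98 ± 0.21), H2-T23 (-0.95 ± 0.14), Tap2 (-0.94 ± 0.15), Psmb8 (-0.81 ± 0.15) and H2-D1 (-0.75 ± 0.15) were also called. Tap1 was at 67.8, 73.4, 88.3 and 62.9 CPM in the controls and 55.3, 60.7 and 39.7 CPM at 14 d, and its change of -0.49 ± 0.16 was under the fold threshold. Samples of 9 members did not overlap, a pattern that 30.6% of tested genes showed in this direction.

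This 14 d macrophage count, like that of 3 d monocytes, followed the scaling. The median change was -0.95 for the members and -0.48 for genes with an average log2 CPM above 3 under TMM, and -0.39 and 0.07 with high-gene TMM. Under the latter only B2m was called lower and Nlrc5 (0.69) was called higher. Library size scaling left 3 and upper quartile scaling 6 called lower, and the share of calls that were lower went from 36.7% to between 11.02% and 19.2%. B2m was the member called lower in all 10 alternatives. Processed pseudogenes took 1.13% to 2.60% of the counts in 14 d macrophages and 0.184% to 0.315% in the other macrophage samples, and alveolar macrophage markers summed to 2088 to 2906 CPM against 5537 to 6896. Neutrophil markers summed to 37.3 to 134 CPM at 14 d and 0.332 to 5.30 CPM in the other macrophages. Itgam (CD11b) was at 0.730 to 2.66 CPM in the controls, 3.65 to 18.3 at 3 d and 54.9 to 102 at 14 d. Siglecf was at 231 to 348, 124 to 322 and 90.1 to 127 CPM in the same order. By calls at 14 d, 2 of 5 classical monocyte, 2 of 5 dendritic and 2 of 3 endothelial markers were higher and 0 lower. Of the T and NK cell list 1 of 6 was higher, and 2 of 4 patrolling monocyte and 3 of 4 epithelial markers were lower. The part of all these differences in the result was not tested. Against 3 d, 7 of 10 members were lower at 14 d (20% of tested genes and 37.6% of those above that level) under TMM and 1 (B2m) under each of the other 3 scalings.

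**Figure D3:**
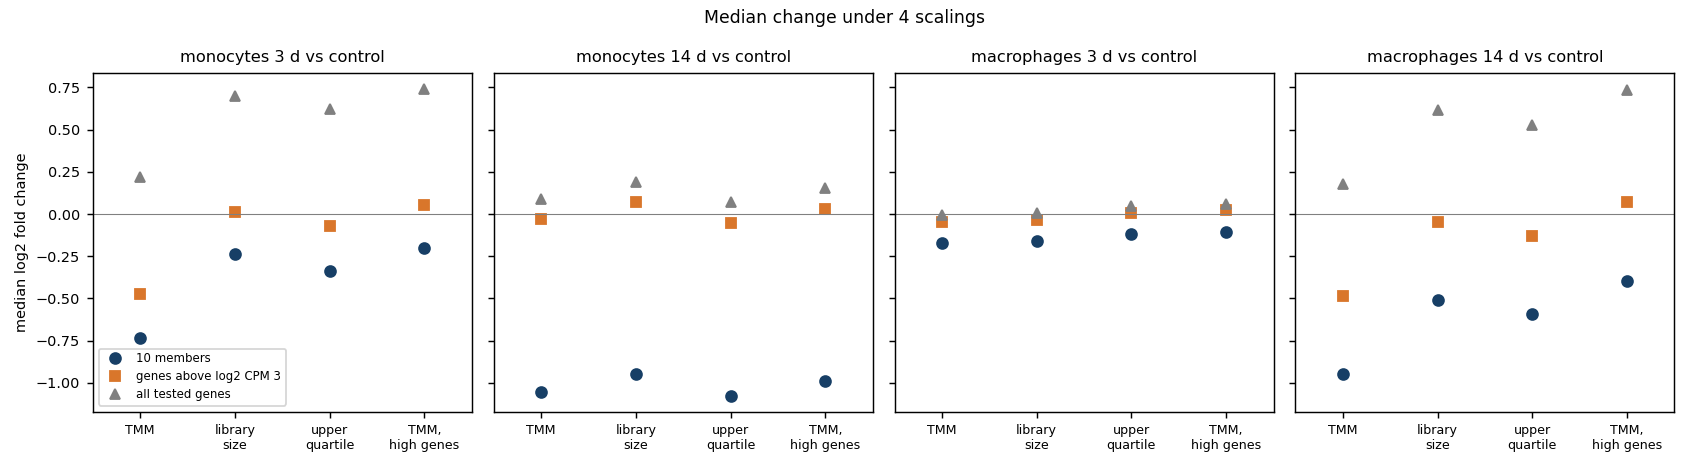
Median log2 fold change against control (y axis) of the 10 members, of genes with an average log2 CPM above 3 and of all tested genes under 4 scalings (x axis) in the 4 comparisons. The members lie below both other sets in every panel and scaling, and their gap to genes with an average log2 CPM above 3 is about 1 log2 unit in monocytes at 14 d and smaller in the other panels.

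Nlrc5 behaved differently in the macrophages. It was at 6.57, 14.4, 12.8 and 6.57 CPM in the controls (96 to 196 counts), between 11.99 and 13.2 CPM at 3 d and 10.8, 14.0 and 8.62 CPM at 14 d (51 to 111 counts), and the 3 groups overlapped. Its change at 14 d was 0.15 ± 0.29 (adjusted p = 0.658, edgeR). The change in macrophages minus that in monocytes, tested as an interaction over the 22 samples, was 1.56 ± 0.36 on the log2 scale (adjusted p = 0.00182, edgeR), where 16.9% of tested genes, and 5.87% of those with an average log2 CPM above 3, were called higher. It was called in 10 of 10 alternatives, at 1.46 to 2.34, and with each sample left out, at 1.38 to 1.77. Nlrc5 was the 1 member of 10 called in this contrast. Tap1 (0.58 ± 0.25, adjusted p = 0.0724, edgeR) was called as well in 6 of 10 alternatives. The count was 3 without control monocyte sample 4 and 2 without 14 d monocyte sample 1, control macrophage sample 3 or 14 d macrophage sample 3. For the other 8 members the sign turned under at least 1 other scaling.

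At 3 d the same interaction was called for 3 of 10 members, B2m (0.64 ± 0.21, adjusted p = 0.0341), H2-K1 (0.73 ± 0.20, adjusted p = 0.0159) and H2-D1 (0.62 ± 0.18, adjusted p = 0.0207, all edgeR), where 3.51% of tested genes, and 8.26% of those with an average log2 CPM above 3, were called higher. Each fell in monocytes and did not pass in macrophages. None was called under library size, upper quartile or high-gene TMM scaling, where the direction stayed but the difference was smaller. The count was 1 without 3 d monocyte sample 1, control macrophage sample 1, or 3 d macrophage sample 1 or 2.

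Ratios of counts within a sample do not depend on scaling. They were used to set each inducible catalytic subunit against the constitutive one it replaces in the assembled proteasome, and are descriptions of counts that are not corrected for gene length. They keep any effect of overlapping genes, such as Gm20496 with Psmb8. Between the cell types, biology and counting thus cannot be told apart in them either. In control monocytes there were 3.63 ± 0.354 Psmb8 counts for each Psmb5 count (SD, n = 4), 2.49 ± 0.427 at 3 d and 1.92 ± 0.177 at 14 d. In macrophages the ratio was 0.981 ± 0.138 in the controls (n = 4), 0.749 ± 0.195 at 3 d and 0.645 ± 0.0368 at 14 d (n = 3 each). On the log2 scale Psmb8/Psmb5 went from 2.00, 1.83, 1.67 and 1.91 in control monocytes to 1.10, 0.83, 0.84 and 1.00 at 14 d, without overlap.

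Psmb9/Psmb6 showed a greater fall in monocytes at 14 d. Its log2 values were -0.50, -0.56, -0.27 and -0.34 in the controls, -0.72, -0.67, -0.61 and -0.45 at 3 d, and between -2.38 and -1.64 at 14 d. The control and 3 d samples overlapped, and all 14 d samples lay lower, by 1.56 ± 0.17 (SE) from control. In macrophages it went from a mean of -1.30 ± 0.22 (SD, n = 4) to -2.29 ± 0.47 at 14 d (n = 3), and at 3 d samples were spread from -2.83 to -1.42. Psmb10/Psmb7 was lower at 14 d in both cell types without overlap, by -0.65 ± 0.14 in monocytes and -1.39 ± 0.18 in macrophages (log2, SE). So each of the 3 ratios lay below the controls at 14 d in every sample of both cell types. In macrophages Psmb10/Psmb7 lay below every control already at 3 d (by -0.84 ± 0.30). Psmb9/Psmb6 there had a mean of -2.28 ± 0.75 (SD) at 3 d, next to -2.29 at 14 d, but its 3 d samples overlapped the controls. The 3 constitutive catalytic subunits stood 0.30 to 0.62 log2 above control in 3 d macrophages, none called, so the 3 d ratios hold that rise too. How many ratios of other genes show such a pattern was not tested.

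**Figure D4:**
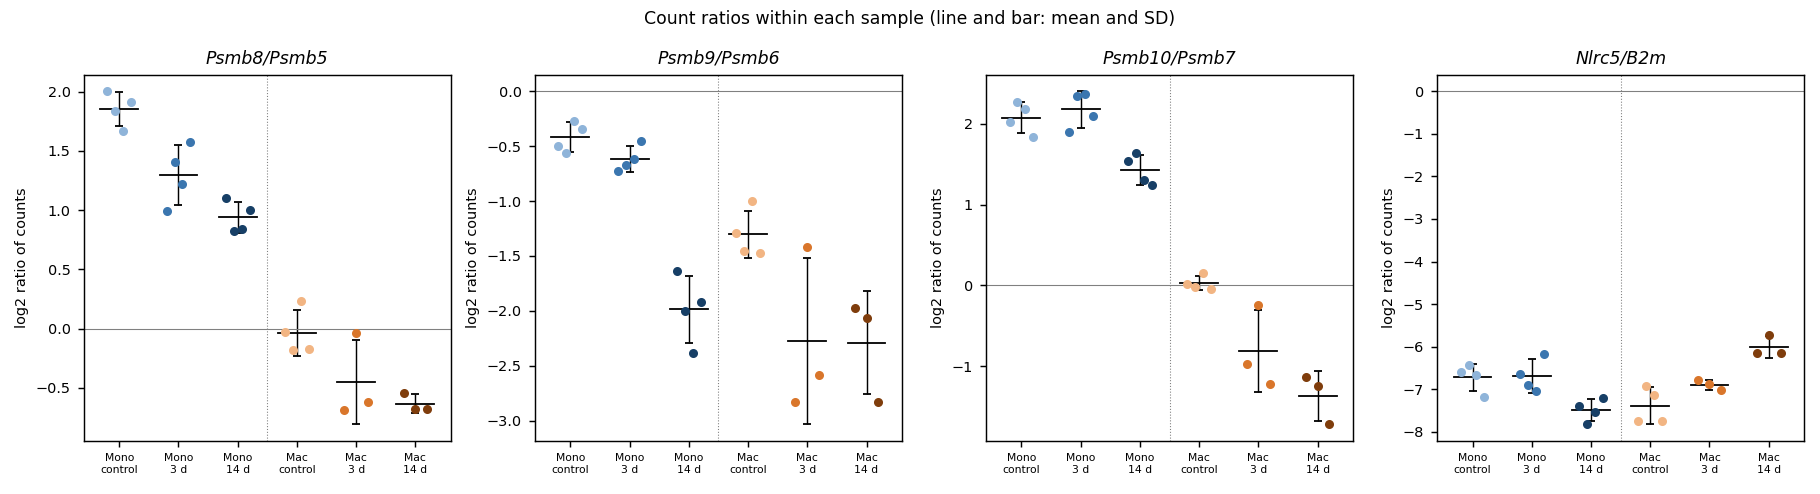
Log2 ratios of raw counts within each sample (y axis) for Psmb8/Psmb5, Psmb9/Psmb6, Psmb10/Psmb7 and Nlrc5/B2m in the 6 groups (x axis); points are samples, lines the mean and bars the SD. The 3 proteasome ratios are below control in all 14 d samples of both cell types, and Nlrc5/B2m is below control in 14 d monocytes and above control in 14 d macrophages.

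The same measure was taken between members, chosen after their values were seen. Log2 Nlrc5/B2m was -6.59, -6.43, -6.67 and -7.18 in control monocytes and -7.39, -7.80, -7.52 and -7.20 at 14 d, all lower. In macrophages it was -7.75, -6.91, -7.12 and -7.74 in the controls and -6.16, -5.72 and -6.15 at 14 d, all higher. Tap1/B2m was also higher in every 14 d macrophage sample than in every control (by 0.66 ± 0.11, log2, SE), while in monocytes the control and 14 d samples overlapped. H2-K1/B2m changed by less from control to 14 d, by -0.06 ± 0.17 in monocytes, with overlap, and 0.14 ± 0.05 in macrophages. In macrophages every 14 d sample lay above every control, and every 3 d sample lay below (by -0.21 ± 0.11).

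Of the 19 regulators in 14 d macrophages, 11 were called lower, 1 higher and 7 not under TMM, where 42.3% of genes with an average log2 CPM above 3 were called lower. Stat2 (-1.19 ± 0.19) and Rfxank, an RFX subunit (-1.15 ± 0.15), were among those called lower, and the suppressor of cytokine signalling Socs1 (2.61 ± 0.52) was higher. Among class I-like genes 8 of the 12 tested were lower and 1, H2-Q10 (3.24 ± 0.35), was higher. The lipid-presenting Cd1d1 (-1.59 ± 0.25), H2-Q6 (-1.32 ± 0.30) and H2-Q7 (-1.26 ± 0.36) had the largest falls. None of the constitutive catalytic and structural 20S subunits was called at 14 d, and 3 of 3 other inducible genes were lower, Psmb10 by 1.10, Psme1 by 0.82 and Psme2 by 0.60 on the log2 scale. These list counts are those under TMM scaling and share the shift described for the members.

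The members varied together to different degrees. Over the 12 monocyte samples each member's median correlation (Pearson's r of log2 CPM) with the other 9 was between 0.80 for Psmb9 and 0.92 for H2-T23. Over the 10 macrophage samples it was 0.86 to 0.96 for 9 members and 0.19 for Nlrc5. These samples share their 3 groups, so r mainly describes group differences. The genes most like the mean of the members over the monocyte samples were Ifitm3, an interferon-induced antiviral protein (r = 0.97), the class I-like H2-T22 (0.97), Calhm2 (0.97), Gm35853 (0.97) and Rasa4 (0.97), out of 8071 genes with a mean log2 CPM above 3. Over the macrophage samples they were Aamdc (0.99), the calcium-binding S100a11 (0.98), Rfesd (0.98), the vesicle protein Vamp3 (0.98) and Tmem238 (0.98), out of 9639.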

How the data were processed

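Messenger RNA of sorted cells was selected with oligo(dT) beads, fragmented and sequenced. According to the submitters' notes, the authors aligned reads with STAR (2.7.2c and 2.7.3a) to GRCm38 (mm10) and counted genes with featureCounts 1.6.3. The deposited values are raw counts per gene, 1 table per cell type, and neither strand setting nor treatment of overlapping genes is given in the sources used here. DESeq2 (1.26.0 and 1.28.1) was also used by the authors, but no result of theirs was used.

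Counts were analysed with edgeR 4.0.16 (R 4.3.3): filterByExpr, TMM, a robust quasi-likelihood fit over the 3 groups of each cell type, and 1 fit of all 22 samples over shared genes for differences between cell types. P-values are two-sided and were adjusted by Benjamini-Hochberg across every gene tested in a comparison. Calls required an adjusted p below 0.05 together with a fold change over 1.5. SE is the absolute log2 fold change over the root of F. Depth was 4610720 to 28789639 counts per sample, and 3 counts, the limit that a count of 0 allows, equal 0.104 to 0.651 CPM, for counting error only. On simulated counts for monocytes at 14 d (20717 genes) the fit recovered 96% of 4-fold and 15% of 2-fold changes, with 2.63% false calls. For macrophages at 14 d (18759 genes) these were 100%, 48% and 5.13%. Every simulated gene had the same dispersion, so these shares do not measure the power for the members. Alternatives were DESeq2 1.42.0, other scalings and filters, a replicate block and leaving out each sample. All 10 members are described, and from other lists at most the 4 called genes with the largest change are named, besides the proteasome subunits set in ratios; 1 regulator is counted in its list but not reported here by name. Ratios between members were described after their values were seen. The members and lists were chosen with earlier results of these data known. Promoters came from RefSeq and gene positions from GENCODE M21.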

Additional observations from a re-analysis of the deposited data

Results flagged for a closer look

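In 5 of 64 groups of 4 samples examined (the CPM of each member and 6 log2 count ratios), 1 sample stood apart from the other 3 by Dixon's gap test, which chance gives in about 1 in 20 groups. In 3 d monocytes the lowest sample was 152 CPM for Tap1 and 449 CPM for Psmb8, both in sample 1, and the highest was 46.9 CPM for Nlrc5, in sample 4. The highest 14 d monocyte sample for H2-K1 was 1574 CPM, and the highest control macrophage sample for Tap2 was 124 CPM.

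The change against control differed between the cell types, by the interaction in the edgeR quasi-likelihood fit, for 4 members. At 3 d the macrophage change minus the monocyte change was 0.64 for B2m (adjusted p = 0.0341), 0.73 for H2-K1 (adjusted p = 0.0159) and 0.62 for H2-D1 (adjusted p = 0.0207) on the log2 scale. At 14 d it was 1.56 for Nlrc5 (adjusted p = 0.00182).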

How the results depend on the processing

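The 14 d fall in monocytes (10 members called) and the lower level in control macrophages (10) had the same count in every alternative and with each sample left out. Members called in the other comparisons moved with scaling and filter. Under library size, upper quartile, high-gene TMM scaling and a stricter filter (mean log2 CPM over 1), in that order, the counts were 1, 1, 1 and 1 for monocytes at 3 d, 6, 6, 8 and 6 for monocytes at 14 d against 3 d, 1, 1, 1 and 1 for macrophages at 14 d against 3 d, 0, 0, 0 and 0 for the interaction at 3 d, and 2, 2, 2 and 2 for that at 14 d. For macrophages at 14 d they were 3 (library size), 2 (high-gene TMM, 1 higher and 1 lower) and 4 (filter). The 14 d interaction was also 2 with DESeq2 and with control monocytes 1 and 2 alone, a choice made after seeing the data, with which the 3 d interaction was 5. The causes were not tested.

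Signs turned only for uncalled values. For monocytes at 14 d against 3 d, under DESeq2, library size, upper quartile, high-gene TMM and the filter, H2-K1 was -0.032, -0.27, -0.30, -0.35 and -0.27 and H2-D1 -0.0797, -0.32, -0.35, -0.40 and -0.32, and with no filter B2m was 0.018 and Psmb8 0.039. Psmb9 in monocytes at 3 d was 0.18 (library size), 0.085 (upper quartile), 0.22 (high-gene TMM) and 0.076 (filter). For macrophages at 14 d against 3 d, Tap1 was 0.067 (library size) and 0.12 (high-gene TMM), and Nlrc5 0.24, 0.12, 0.29 and 0.15 under the 4 settings. Against control, Tap1 was 0.054 (high-gene TMM) and Nlrc5 -0.058 (no filter).

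Leaving out each sample gave 5 to 9 members for monocytes at 3 d, 10 to 10 at 14 d, 3 to 3 for 14 d against 3 d, 0 to 0 for macrophages at 3 d, 8 to 9 at 14 d, 5 to 8 for 14 d against 3 d, 1 to 4 and 1 to 3 for the interactions at 3 d and 14 d, and 10 to 10, 8 to 10 and 10 to 10 for macrophages against monocytes at control, 3 d and 14 d. Nlrc5 in macrophages at 14 d ranged from -0.079 to 0.38, and the monocyte change from 3 d to 14 d from -0.056 to 0.16 for H2-K1 and from -0.042 to 0.10 for H2-D1, negative for both without 3 d monocyte sample 1.

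Same-numbered samples did not deviate together in every pair of groups, so numbers were not taken as pairs. Control and 14 d monocytes did so: r was 0.089 to 0.52 (mean 0.28), against a mean of -0.093 for different numbers. In the other pairs of groups the lowest r was below 0. In control and 14 d monocytes 6 of 8 samples correlated best with their own number, and 0 to 4 samples in the other pairs. With a replicate block 10 members were called lower in 14 d monocytes. With a replicate block the counts were 8 for monocytes at 3 d and 1 for the 3 d interaction, and 133 genes in all for macrophages at 3 d against 267 without it (DESeq2 763). The stricter filter, which tests fewer genes, called 1468 genes in all for monocytes at 3 d, against 11438, and no filter 19592; for 14 d against 3 d these were 1557, 10395 and 16664. In macrophages it called 5018 against 13051 at 14 d and 4236 against 11806 for 14 d against 3 d. For the interactions it called 1211 against 4995 and 3736 against 9829, and between cell types 7586, 7050 and 7447 against 11787, 16830 and 17006. Without 14 d monocyte sample 3 the 14 d monocyte count was 1158 against 1914.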
